A study of Caenorhabditis elegans with 5 samples.

Results

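The proteasome subunit genes of the nematode Caenorhabditis elegans were taken as the rows of the deposited count tables whose symbol starts with pas-, pbs-, rpt- or rpn- followed by a digit, which gave 33 of 45251 genes. Of these, 14 encode the core particle (7 pas genes for its alpha ring and 7 pbs genes for its beta ring). The other 19 encode the regulatory particle: 6 rpt genes for the ATPase ring, 4 rpn genes (rpn-1, rpn-2, rpn-10 and rpn-13) placed here with the base, and 9 rpn genes for the lid. All 33 had enough counts to be tested.

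RNA came from whole wild-type N2 worms, the laboratory strain, at a stage labelled L4 to adult. Worms spent 24 h at 20 °C on nematode growth medium with E. coli OP50 and either 1 mM Bisphenol TMC (BPTMC), a bisphenol, or dimethyl sulfoxide (DMSO), the control. There were 3 BPTMC and 2 DMSO libraries, made by 3' tag sequencing, in which a transcript is counted from reads near its 3' end. The labels do not say whether the replicates were separate cultures, and p-values here reflect only the variation among these 5 libraries, which may be technical.

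The proteasome degrades proteins that carry ubiquitin chains. Its core particle is a barrel of alpha and beta rings with the cutting sites inside, and the regulatory particle binds the chain, removes it, unfolds the substrate and threads it in. In C. elegans, the transcription factor SKN-1A raises transcription of proteasome subunit genes when proteasome activity is impaired.

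Total counts were 16531114 to 24362712 per library, and ribosomal RNA genes took 11.2% to 24.7% of them. Levels are given as CPM, a gene's count scaled to its library's total, after normalisation by the trimmed mean of M-values (TMM). BPTMC replicate 1 and DMSO replicate 2 lay at opposite ends for the mean levels of germline, muscle and sperm marker lists. The summed level of 14 oocyte and maternal germline markers was 1055 CPM in BPTMC replicate 1 and 6052 CPM in DMSO replicate 2, with 2429, 4090 and 4825 CPM in DMSO replicate 1 and BPTMC replicates 2 and 3. Germline, intestine and muscle marker lists had reads for each of their genes in every library.

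In BPTMC the fitted log2 fold change was below 0 for 33 of 33 proteasome subunits, but 0 subunits passed the test. Over all 14238 genes tested, 54.5% were below 0. The median over the subunits was a log2 fold change of -0.47, from -0.67 for pbs-6 to -0.24 for pas-7, where the median over all genes tested was -0.087. The summed level of the subunits was 5083 and 6332 CPM in the DMSO libraries and 2802, 4948 and 4563 CPM in BPTMC replicates 1, 2 and 3. The BPTMC mean of that sum was 71.9% of the DMSO mean, and every BPTMC library was below both DMSO libraries, with BPTMC replicate 1 far below the others.

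With edgeR's quasi-likelihood test, Benjamini-Hochberg adjusted p-values of the subunits ran from 0.751 to 0.847 over all genes. The same test called 0.105% of all genes higher and 0% lower. Before adjustment, 0 subunits reached a p under 0.05 in either direction, where 7% of all genes did so with a higher and 0.4% with a lower level. DESeq2 and limma-voom each called 0 subunits as well, where DESeq2 called 1.67% of all genes higher and 0.0211% lower, and limma-voom 0.00702% higher and 0% lower. The 95% interval of the log2 fold change included 0 for each subunit. Its lowest lower bound was -1.83, for rpn-13, and its upper bound was between 0.16 for pbs-6 and 0.93 for rpn-2.

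**Figure D1:**
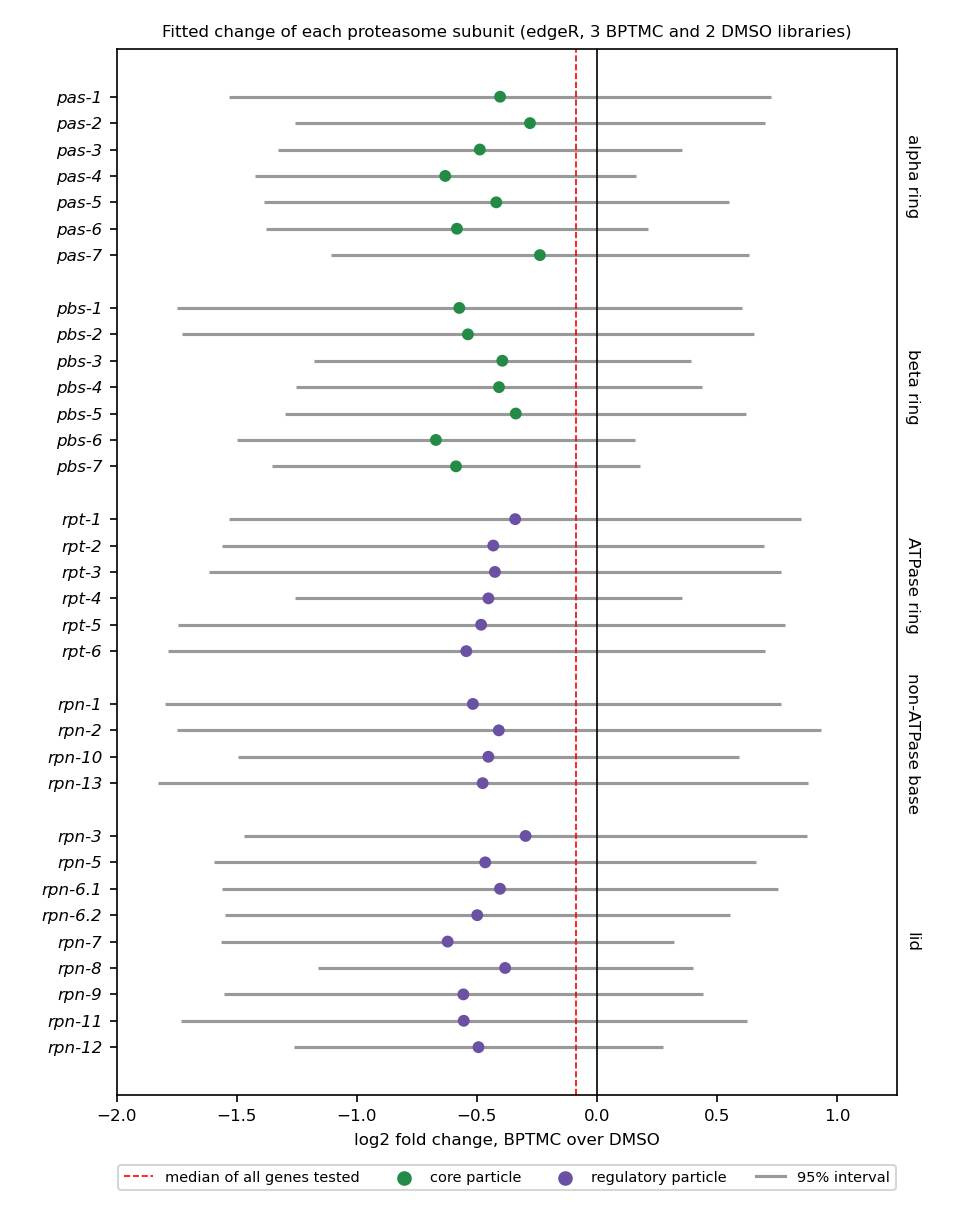
Fitted log2 fold change of BPTMC over DMSO (x axis) for each of the 33 proteasome subunits (rows, grouped by ring, base and lid), with 95% intervals from the edgeR fit on 3 BPTMC and 2 DMSO libraries. Every point lies below 0 and below the dashed median of all genes tested (-0.087), and every interval includes 0.

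The level by library showed where the difference lay. BPTMC replicate 1 was the lowest of the 5 libraries for 24 of 33 subunits, against 29.9% of all genes tested. BPTMC replicate 3 was the lowest for the other 9 (25.3% of all genes). DMSO replicate 2 was the highest library for 23 subunits (25.9% of all genes), DMSO replicate 1 for 9 (20.6%), and BPTMC replicate 2 for 1, pas-2 (9.91%). Without BPTMC replicate 1, the median log2 fold change over the subunits was -0.11 and 24 of 33 were below 0. Without DMSO replicate 2 the median over the subunits was -0.13 and 25 of 33 were below 0. The median over all genes was then 0.12, with 43.6% below 0. The difference between the groups was smaller without either of these libraries. With each of the other 3 libraries left out the median over the subunits was -0.68 to -0.59.

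**Figure D2:**
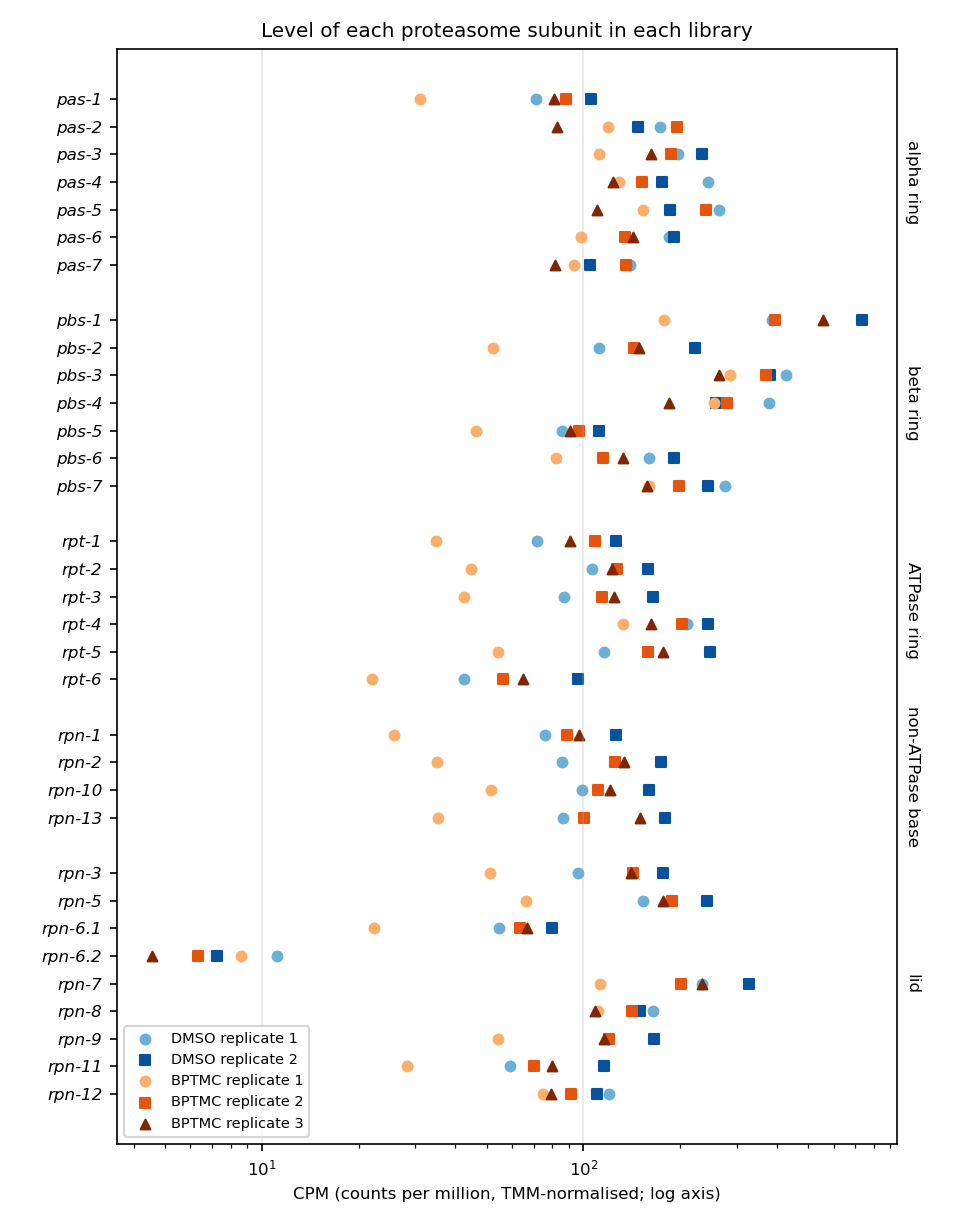
Level of each of the 33 proteasome subunits (rows) in each of the 5 libraries (points), in TMM-normalised CPM on a log axis. BPTMC replicate 1 (pale orange circles) is the leftmost point for 24 subunits, and rpn-6.2 lies apart at 4.58 to 11.2 CPM.

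For 10 of 33 subunits (30.3%) every BPTMC library was below both DMSO libraries, against 9.96% of all genes tested. No subunit had every BPTMC library above both, where 13.4% of all genes did. The 10 were pas-3, pas-4, pas-6, pbs-3, pbs-6, pbs-7, rpt-4, rpn-7, rpn-8 and rpn-12, that is 6 core and 4 regulatory subunits. Their log2 fold changes ran from -0.67 to -0.38, and from -0.54 to -0.22 without BPTMC replicate 1; the choice of these genes fixes their direction. In the other 23 subunits the groups overlapped.

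Of the 7 alpha ring genes, which shape the barrel's outer rings and its gate, 7 had a log2 fold change below 0 (median -0.42) and 0 passed the test. pas-4, on chromosome I (8727218 to 8728487, WBcel235), had the lowest value of the ring. Its level was 243 and 175 CPM in the DMSO libraries and 129, 152.3 and 124 CPM in BPTMC replicates 1, 2 and 3. All 3 BPTMC libraries were below both DMSO libraries, with a log2 fold change of -0.63 ± 0.35 (SE; edgeR adjusted p = 0.762). pas-7, on chromosome II (10098782 to 10099854), had the highest value of the ring. Its level was 140 and 105 CPM in DMSO against 93.3, 136 and 81.7 CPM in BPTMC, where BPTMC replicate 2 lay between the DMSO libraries (log2 fold change -0.24 ± 0.38, edgeR adjusted p = 0.844).

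Of the 7 beta ring genes, 7 were below 0 (median -0.54) and 0 passed. pbs-1, pbs-2 and pbs-5 encode the catalytic subunits, with caspase-like, trypsin-like and chymotrypsin-like activity. pbs-1, on chromosome IV (1708814 to 1709745), stood at 385 and 732 CPM in DMSO against 178, 393 and 554 CPM in BPTMC. pbs-2, on chromosome I (12967216 to 12968280), stood at 112 and 222 CPM in DMSO against 52.5, 143 and 149 CPM in BPTMC. For both genes the groups overlapped: BPTMC replicates 2 and 3 lay between the DMSO libraries, and BPTMC replicate 1 lay below all others. The log2 fold change was -0.57 ± 0.51 for pbs-1 and -0.54 ± 0.52 for pbs-2 (SE).

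pbs-5, on chromosome I (14719167 to 14720477), had the highest fold change of the beta ring, at -0.34 ± 0.42. Its level was 85.8 and 112 CPM in DMSO against 46.5, 96.7 and 91.1 CPM in BPTMC. It gave the same order as pbs-1 and pbs-2 at the bottom and top, with BPTMC replicate 1 lowest and DMSO replicate 2 highest. pbs-6, a beta subunit without a cutting site, on chromosome III (8243122 to 8244092), had the lowest fold change of all 33, at -0.67 ± 0.36 (SE; edgeR adjusted p = 0.751). Its level was 160 and 191 CPM in DMSO against 82.4, 115 and 133 CPM in BPTMC, so the groups did not overlap.

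Of the 6 rpt genes, whose ATPases form the ring that unfolds the substrate, 6 were below 0 (median -0.44) and 0 passed. rpt-6, on chromosome III (12370456 to 12372607), had the lowest fold change of the ring, -0.54 ± 0.54 (SE), with 42.6 and 96.5 CPM in DMSO against 22.05, 56.3 and 64.7 CPM in BPTMC. rpt-1, on chromosome V (11980534 to 11982397), had the highest, -0.34 ± 0.52, with 71.7 and 126 CPM in DMSO against 34.9, 109 and 91.0 CPM in BPTMC. rpt-3, on chromosome III (6489793 to 6491282), stood at 87.3 and 165 CPM in DMSO against 42.4, 114 and 125 CPM in BPTMC (log2 fold change -0.43 ± 0.52). In all 3 genes the spread between the DMSO libraries held BPTMC replicates 2 and 3, and BPTMC replicate 1 was below them. All 6 rpt genes had their lowest level in BPTMC replicate 1 and their highest in DMSO replicate 2.

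Of the 4 rpn genes placed with the base, 4 were below 0 (median -0.46) and 0 passed. rpn-1 and rpn-2 are the large scaffold subunits. rpn-1, on chromosome IV (6906420 to 6909913), stood at 75.7 and 126 CPM in DMSO against 25.9, 89.0 and 96.9 CPM in BPTMC (log2 fold change -0.52 ± 0.56, SE). rpn-2, on chromosome III (6199184 to 6202594), stood at 86.1 and 174 CPM in DMSO against 35.0, 126 and 134 CPM in BPTMC (-0.41 ± 0.59). These were the lowest and the highest fold change of the base, and both genes spread widely within BPTMC. BPTMC replicate 2 exceeded replicate 1 by 1.78 log2 units for rpn-1 and by 1.84 for rpn-2.

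rpn-10 and rpn-13 encode receptors for ubiquitin chains. rpn-10, on chromosome I (10730712 to 10732424), stood at 99.1 and 160 CPM in DMSO against 51.7, 111 and 121 CPM in BPTMC (log2 fold change -0.45 ± 0.46, SE). rpn-13, on chromosome III (6340113 to 6341928), stood at 86.3 and 179 CPM in DMSO against 35.4, 101 and 150 CPM in BPTMC (-0.48 ± 0.59). The groups overlapped for both, again with BPTMC replicates 2 and 3 between the DMSO libraries.

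Of the 9 lid genes, 9 were below 0 (median -0.49) and 0 passed. rpn-11, on chromosome II (4043055 to 4044546), encodes the metalloprotease that cuts ubiquitin chains off the substrate. It stood at 59.2 and 116 CPM in DMSO against 28.2, 70.4 and 79.7 CPM in BPTMC (log2 fold change -0.56 ± 0.52, SE), with overlapping groups. rpn-7, a structural lid subunit on chromosome IV (9316631 to 9318632), had the lowest fold change of the lid, -0.62 ± 0.41 (edgeR adjusted p = 0.823). Its level was 233.44 and 328 CPM in DMSO against 112, 201 and 233.43 CPM in BPTMC, so DMSO replicate 1 and BPTMC replicate 3 barely differed. rpn-3, a structural lid subunit on chromosome III (8447353 to 8449346), had the highest, -0.30 ± 0.51, with 96.5 and 177 CPM in DMSO against 51.2, 142.4 and 140 CPM in BPTMC.

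rpn-6.1 and rpn-6.2 are paralogs on chromosome III. rpn-6.1 (6959110 to 6962001) encodes a lid subunit that joins the regulatory particle to the core, and its overexpression is known to raise proteasome activity and stress survival in C. elegans. It stood at 54.6 and 79.8 CPM in DMSO against 22.3, 63.3 and 66.8 CPM in BPTMC (log2 fold change -0.40 ± 0.51, SE), with BPTMC replicate 1 lowest and DMSO replicate 2 highest. rpn-6.2 (8999817 to 9001999) stood at 11.2 and 7.24 CPM in DMSO against 8.60, 6.33 and 4.58 CPM in BPTMC (-0.50 ± 0.46). It had its highest level in DMSO replicate 1 and its lowest in BPTMC replicate 3. It was the 1 subunit of 33 that was lower in BPTMC replicate 2 than in BPTMC replicate 1, by 0.44 on the log2 scale; over all genes tested 51.8% were lower in replicate 2. With 90 to 249 reads per library it also had the fewest counts, where the other 32 subunits had 451 to 15566.

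Core and regulatory particle had nearly the same median change, but their levels spread differently over the libraries. The median log2 fold change was -0.45 for the 14 core subunits and -0.47 for the 19 regulatory subunits, a difference of -0.012. Around each gene's mean over the 5 libraries, the core stood on average at 0.27 and 0.34 log2 units in the DMSO libraries and at -0.56, 0.14 and -0.18 in BPTMC replicates 1, 2 and 3. The regulatory particle stood at 0.023 and 0.62 in DMSO and at -0.997, 0.18 and 0.18 in BPTMC. The core mean was lower in each BPTMC library than in both DMSO libraries, whereas for the regulatory particle BPTMC replicates 2 and 3 lay between the DMSO libraries.

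The level of the regulatory particle minus that of the core was -0.43, 0.040 and 0.36 log2 units in BPTMC replicates 1, 2 and 3, against -0.25 and 0.29 in DMSO. The range within each group was larger than the difference between the groups. A change of balance between the particles was not tested. The sign of the difference of medians depended on the libraries: it was 0.23 without BPTMC replicate 1 and 0.32 without DMSO replicate 2, since the regulatory median was then -0.024 or -0.10 while the core median was -0.25 or -0.43. With total-count scaling it was 0.013.

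**Figure D3:**
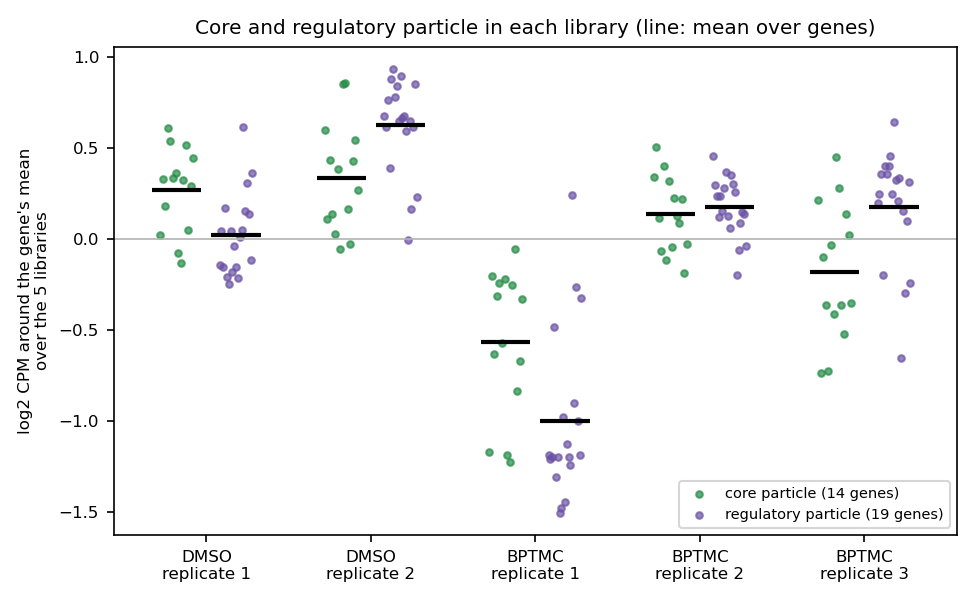
Level of each core subunit (14 genes, green) and regulatory subunit (19 genes, purple) in each library, as log2 CPM around the gene's mean over the 5 libraries, with black lines for the mean over genes. The regulatory mean ranges from -0.997 in BPTMC replicate 1 to 0.62 in DMSO replicate 2, and the core mean from -0.56 to 0.34 in the same libraries.

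The difference between the 2 DMSO replicates separated the subunits into 2 sets. In DMSO, 23 of 33 subunits were higher in replicate 2 than in replicate 1 (47.4% of all genes tested), 16 of them regulatory and 7 core. The 10 that were lower in replicate 2 were pas-2, pas-4, pas-5, pas-7, pbs-3, pbs-4, pbs-7, rpn-6.2, rpn-8 and rpn-12. The median difference was 0.69 log2 units over the regulatory and -0.054 over the core subunits. In BPTMC, 32 subunits were higher in replicate 2 than in replicate 1, where 51.8% of all genes tested were lower. The median differences were 1.43 over the regulatory and 0.59 over the core subunits. In replicate 3, 24 subunits were higher than in replicate 1 (43.8% of all genes). For the regulatory particle, these differences between libraries of 1 group exceeded the fitted difference between the groups.

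Annotated exon length differed between the sets. The 10 subunits that were lower in DMSO replicate 2 had a median exon length of 866.5 bases (801 to 1557), and the other 23 of 1406 bases (822 to 3171). Core genes had 801 to 1059 bases and regulatory genes 855 to 3171. Across the 33 subunits Spearman's rho between exon length and the difference of DMSO replicate 2 from replicate 1 was 0.52, and for BPTMC replicate 2 from replicate 1 it was 0.63. Within the 14 core genes these values were 0.43 and 0.37, and within the 19 regulatory genes 0.18 and 0.56. Both the DMSO and the BPTMC value over all subunits were thus larger than within either particle. Over 12868 protein-coding genes the values were 0.36 and 0.27. These are descriptions across genes that share the same libraries, and genes are not independent replicates. For the fold change of BPTMC over DMSO, rho over the subunits was 0.036.

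**Figure D4:**
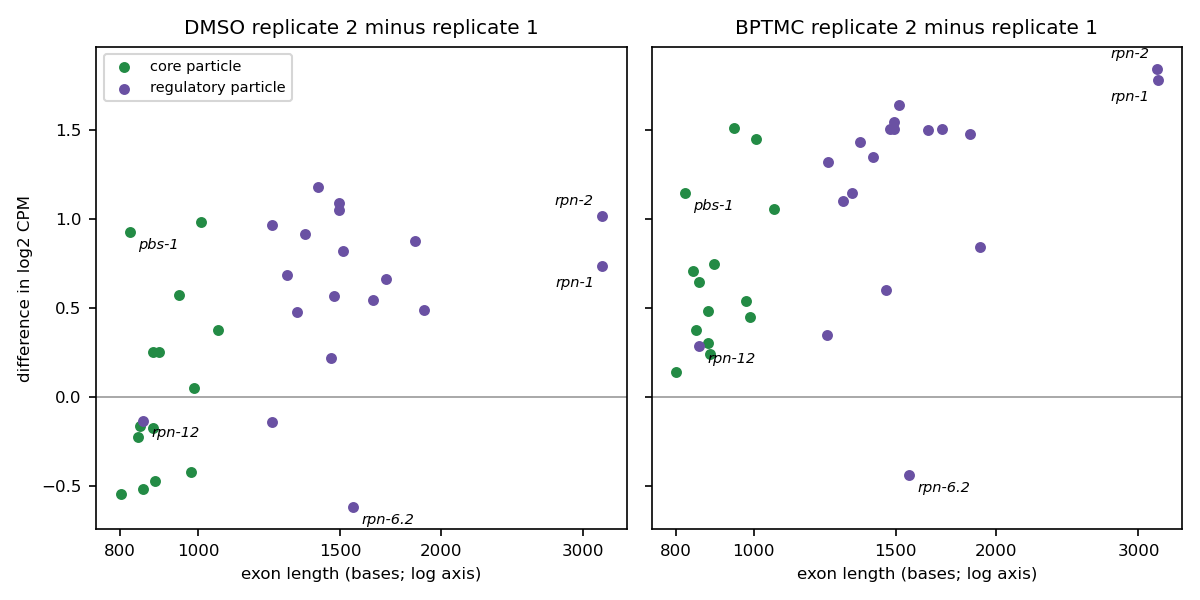
Difference in log2 CPM between replicates 2 and 1 of DMSO (left) and of BPTMC (right) against annotated exon length on a log axis, for the 14 core (green) and 19 regulatory (purple) subunits. The long rpn-1 and rpn-2 lie high in both panels, the short rpn-12 lies among the core genes, and rpn-6.2 is the 1 point below 0 in the right panel.

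The means of both germline marker lists were lowest and highest in the same libraries as the means of both particles. Around each gene's mean, the 14 oocyte and maternal germline markers stood at -0.27 and 0.91 log2 units in the DMSO libraries and at -1.59, 0.40 and 0.55 in BPTMC replicates 1, 2 and 3. The 8 mitotic and meiotic germline markers stood at 0.16 and 0.62 in DMSO and at -1.09, 0.10 and 0.21 in BPTMC. Both lists were lowest in BPTMC replicate 1 and highest in DMSO replicate 2, as the regulatory particle was. The core mean had the same extremes, at -0.56 and 0.34. The median log2 fold changes of the 2 germline lists were -0.39 and -0.52. BPTMC replicate 1 was the lowest library for 14 of 14 oocyte and maternal markers and 6 of 8 mitotic and meiotic markers. DMSO replicate 2 was the highest for 13 and 6 of them. him-3 and syp-2 were instead highest in DMSO replicate 1 and lowest in BPTMC replicate 3, and cpg-3 was highest in BPTMC replicate 2.

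The summed level of the mitotic and meiotic germline markers ranged from 687 to 1032 CPM in DMSO against from 299 to 770 CPM in BPTMC. The 4 muscle markers had their highest mean in BPTMC replicate 1, at 1.17, and the 27 major sperm protein genes at 1.83, where DMSO replicate 2 had -0.56 and -1.50. In BPTMC replicates 2 and 3 the muscle markers stood at -0.21 and -0.10. The sperm genes differed widely between these libraries, at -1.18 and 1.16. The 7 intestine markers had their highest mean in BPTMC replicate 1 as well, at 0.48, and their lowest in BPTMC replicate 3, at -0.30. Within this list, vit-3 (696 CPM) and vit-4 (1172 CPM) were lower in BPTMC replicate 1 than in both DMSO libraries. The other intestine markers were higher there than in both. The 5 heat shock markers stood at 1.36 and -2.43 in the DMSO libraries and at 1.63, -1.27 and 0.70 in BPTMC replicates 1, 2 and 3. Their mean was highest in BPTMC replicate 1 and lowest in DMSO replicate 2, where hsp-70 and hsp-16.41 had 0 reads and hsp-16.2 had 2. By contrast, hsp-16.1 was lowest in DMSO replicate 1, at 80.3 CPM, against 88.9 CPM in DMSO replicate 2. For 3 of the 5 heat shock markers (hsp-16.2, hsp-16.41 and hsp-70) the highest library was DMSO replicate 1. The other markers, hsp-16.1 and hsp-16.48, were highest in BPTMC replicate 1. The part of these tissues and of heat shock genes in the subunits' levels was not tested. In RNA from whole worms, fewer cells of a type and less RNA per cell cannot be told apart.

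**Figure D5:**
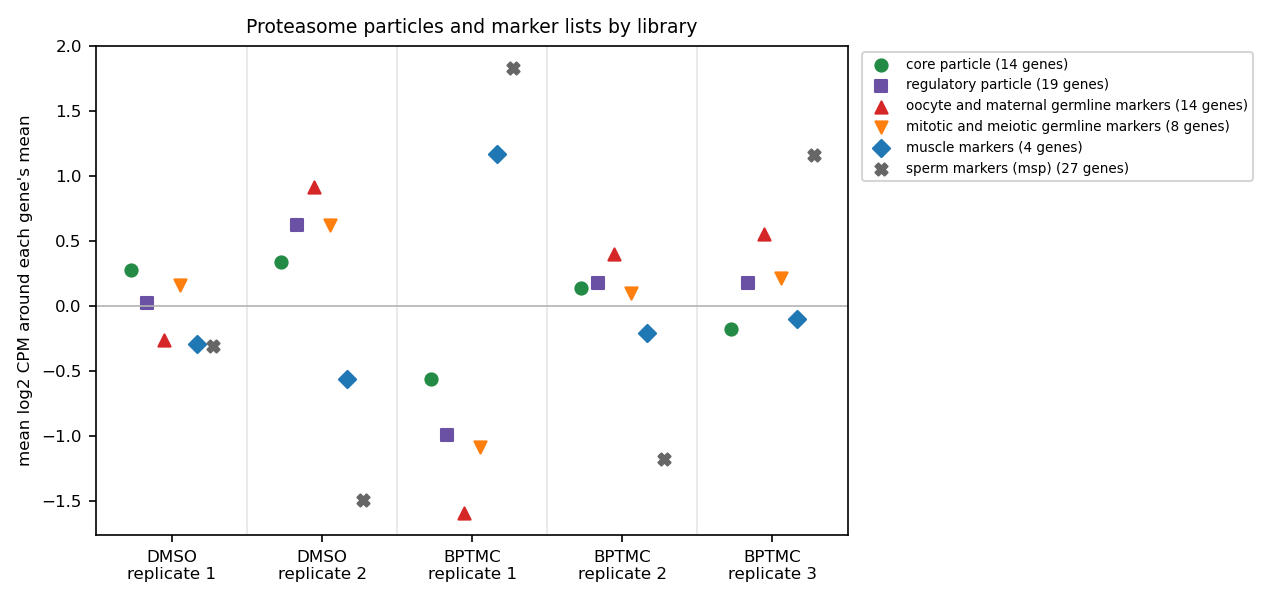
Mean level of the core and regulatory particle and of 4 marker lists in each library, as log2 CPM around each gene's mean over the 5 libraries. In BPTMC replicate 1 the core (-0.56), the regulatory particle (-0.997) and both germline lists (-1.59 and -1.09) are at their lowest. Muscle (1.17) and sperm (1.83) markers are at their highest there.

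Genes that work with the proteasome were described from lists chosen by known function. Of 13 tested factors that bind the proteasome or bring substrates to it, 13 had a log2 fold change below 0 (median -0.46) and 0 passed the edgeR test; 0 reached a p under 0.05 before adjustment. The smallest p-values belonged to ufd-1, a cofactor of the segregase CDC-48, and to ubh-4, a deubiquitinase of the regulatory particle. ufd-1 went from a mean of 76.6 CPM in DMSO to 52.9 CPM in BPTMC (-0.53 ± 0.36, SE) and ubh-4 from 51.3 to 36.03 CPM (-0.51 ± 0.35). dss-1, the small lid subunit whose symbol lies outside the rule, had -0.36 ± 0.40.

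Of 6 genes listed for the control of proteasome genes by SKN-1A or for repression of SKN-1, 5 were below 0 (median -0.28). edgeR called 0 of them, and 0 were at a p under 0.05 before adjustment. skn-1 itself stood at means of 96.7 CPM in DMSO against 83.3 CPM in BPTMC (log2 fold change -0.21 ± 0.43, SE), counted over all its isoforms. The smallest p-values belonged to ddi-1, the protease that cuts SKN-1A, at -0.44 ± 0.36, and to png-1, the glycanase that edits it, at -0.43 ± 0.46. wdr-23, a repressor of SKN-1, was the 1 gene above 0, at 0.13 ± 0.37.

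Of 21 tested genes for ubiquitin and the enzymes that activate and conjugate it, 18 were below 0 (median -0.24), with 0 called by edgeR and 0 at a p under 0.05 before adjustment. The smallest p-values belonged to the conjugating enzyme genes ubc-8, at 0.95 ± 0.48 with means of 3.72 CPM in DMSO against 7.18 CPM in BPTMC, and ubc-20, at -0.61 ± 0.51. The list for the COP9 signalosome, a complex related to the proteasome lid, held 6 of its genes, csn-1 to csn-6. Of these, 6 were below 0 (median -0.36), with 0 called by edgeR and 0 at a p under 0.05 before adjustment. csn-4 had -0.46 ± 0.40 and csn-6 -0.42 ± 0.39. These lists lay between the median of all genes and that of the proteasome subunits.

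The 33 genes lie on 5 chromosomes of WBcel235, as annotated by Ensembl: 10 on I, 7 on II, 8 on III, 3 on IV and 5 on V, with 0 on X. Of them, 12 overlap another annotated gene, 10 on the opposite strand and 2 on the same strand. The strand setting of the counting is not given in the sources used here, so reads of a gene and its antisense partner cannot be told apart. Among the 10 subunits with separated groups, pbs-3, rpt-4 and rpn-7 overlap a gene on the opposite strand, pbs-7 overlaps K07A12.5 and rpn-8 a small nucleolar RNA gene on the same strand, and the other 5 overlap none.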

How the data were processed

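The authors deposited 1 table of raw counts per library, with genes named by symbol. The submitters' processing notes name Bowtie2, bedtools and the build WBcel235. RNA was made into Lexogen QuantSeq 3' libraries from 500 ng total RNA, per the labels' protocols. Versions, annotation and strand setting: not given in the sources used here. Libraries (3 BPTMC, 2 DMSO) were compared with edgeR 4.0.16 (R 4.3.3) using its quasi-likelihood test, TMM scaling, a filterByExpr minimum count of 10 and Benjamini-Hochberg adjustment over 14238 genes (called at an adjusted p under 0.05). The approximate SE is the size of the log2 fold change over the root of the F statistic, and 95% intervals use the fit's degrees of freedom. Levels around a gene's mean are log2 CPM with a prior count of 2. The procedure was tested on simulated data. A chi-square of gene counts gave 86.3 to 487 per degree of freedom over the pairs of libraries, so each was kept as 1 sample. Coordinates, overlaps and exon lengths come from Ensembl 115 by symbol.

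Members and lists were chosen with earlier results of these data known. Named subunits were those with a catalytic, receptor or known paralog role, rpn-1, rpn-2 and rpt-3, and the highest and lowest fold change of each ring, base and lid; of each other list, up to 2 genes with the smallest p. pas-2, dss-1, skn-1 and wdr-23 were added after their values were seen. psme-3 and ubc-2 had no row and ubc-21 was under the filter. Among other lists, heat shock markers had a median log2 fold change of -0.10 (5 genes), intestine markers 0.76 (7), muscle markers 1.04 (4), sperm markers 1.91 (27) and moulting markers 1.61 (3 tested of 4). Alternatives were other scalings, filters, DESeq2 1.42.0, limma-voom (limma 3.58.1), legacy dispersions, ribosomal RNA genes left out, a threshold of 0.01, the replicate block and each library left out.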

Additional observations from a re-analysis of the deposited data

How the results depend on the processing

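All 33 subunits kept a log2 fold change below 0 under every alternative that kept the 5 libraries, and 0 were called under every alternative without the replicate number in the model. Over all genes, 15 were called, 2 with total-count scaling, 67 without a filter on low counts, 3 with at least 5 CPM in 2 or more samples, 241 by DESeq2, 1 by limma-voom, 3 with legacy dispersions, 4 without ribosomal RNA genes and 2 at an adjusted p under 0.01. Leaving out 1 library each gave 0 to 43. The replicate block, with 2 shared numbers and BPTMC replicate 3 unpaired, called 1746 genes, 599 of them lower, and 4 subunits lower: pbs-1 (-1.003), rpn-1 (-1.02), rpn-13 (-1.06) and rpn-7 (-0.88). In that fit 18 of 33 subunits were lower at a p under 0.05 before adjustment. The share of all genes lower at that p is not given here, so the 18 have no background to be read against. The median over the 33 subunits was -0.72 in that fit. Over all genes tested the median was -0.0028, with 50.2% below 0. Deviations from the group means correlated at 0.67 between both replicates 1 and at 0.33 between both replicates 2 over 14238 genes. Between DMSO replicate 2 and BPTMC replicate 3 the correlation was 0.47. With 2 DMSO libraries, their deviations mirror each other, so these values cannot decide whether the numbers pair the samples. The labels give replicate numbers but state no pairing. The core median stayed between -0.63 and -0.25 over all alternatives and the regulatory median between -0.79 and -0.024. Signs of subunits turned only in fits without 1 library, and that of the regulatory minus the core median also with total-count scaling (0.013). With 1 library left out at a time, log2 fold changes spanned -0.67 to 0.034 for pas-1, -0.60 to 0.032 for pas-2, -0.96 to 0.029 for pbs-2, -0.53 to 0.016 for pbs-5, -0.70 to 0.12 for rpt-1, -0.70 to 0.010 for rpt-2, -0.82 to 0.095 for rpt-3, -0.94 to 0.15 for rpt-5, -1.03 to 0.15 for rpt-6, -0.84 to 0.17 for rpn-2, -0.93 to 0.12 for rpn-13, -0.68 to 0.20 for rpn-3 and -0.66 to 0.047 for rpn-6.1. The values above 0 came without DMSO replicate 2 for pbs-2, rpt-1, rpt-3, rpt-5, rpt-6, rpn-2, rpn-13 and rpn-3, without BPTMC replicate 1 for pas-1, pbs-5, rpt-1, rpt-2, rpt-3, rpn-2, rpn-13, rpn-3 and rpn-6.1, and without BPTMC replicate 3 for pas-2. Where 1 DMSO library remained, its spread was taken from the BPTMC libraries. The cause of these changes was not tested.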
